A study of Homo sapiens with 32 samples.

Results

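The 10 protein-coding genes described here belong to the pathway by which cells keep making selected proteins while general protein synthesis is held down. They were picked by symbol among the 19815 protein-coding genes of the 2 deposited tables, by a rule that uses no measured value, although the set was proposed with earlier results of these data known. The set comprised the transcription factors ATF4, ATF5, ATF3 and DDIT3 (CHOP), the phosphatase subunits PPP1R15A (GADD34) and PPP1R15B (CReP), the regulators TRIB3 and CHAC1, and the kinases EIF2AK3 (PERK) and EIF2AK4 (GCN2). Each of the 10 was found once in each table and passed the filter on low counts in both cell lines.

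Polysomal RNA-Seq was available for MCF10A, a non-malignant, immortalised line of breast epithelial cells, and for MDA-MB-231, a line from a metastatic triple-negative breast cancer. Cells stayed in normoxia with vehicle (N), spent 24 h at 0.5% O2 (H), received 2.5 µM PP242 for 3 h in normoxia (NPP), or had both (HPP). PP242 is an inhibitor of the mTOR kinase in both of its complexes. From each culture total RNA (T) and the RNA pooled from all polysome fractions (P) were sequenced, with 2 biological replicates per group and 32 libraries in all. Because light and heavy polysomes were pooled, a shift of an mRNA within the polysomes could not be seen. Library totals ran from 18340916 to 46032327 assigned reads, with a median of 34561484. Levels are given as TMM-scaled CPM, in the order replicate 1 then replicate 2. These are reads per 1000000 protein-coding reads that passed the filter in a library, divided by a scaling factor set within each line, which ran from 0.764 to 1.13 in MCF10A and from 0.894 to 1.08 in MDA-MB-231, so these levels compare libraries of one line.

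The labels of the libraries were compared with known markers. CA9, a carbonic anhydrase induced by hypoxia, lay between 522 and 1356 CPM in hypoxic and between 7.72 and 26.9 CPM in normoxic MCF10A libraries. In MDA-MB-231 it lay between 13.0 and 34.6 CPM in hypoxia and between 0.0568 and 1.02 CPM in normoxia, so the oxygen groups did not overlap in either line. The basal keratins KRT5 and KRT14 had medians of 1919 and 1543 CPM in MCF10A and of 0 and 0.266 CPM in MDA-MB-231. The epithelial markers CDH1 and TP63 were nearly absent from the MCF10A libraries, with highest values of 0.361 and 0.226 CPM, and vimentin (VIM), a mesenchymal filament, had a median of 2620 CPM there. Several pairs of MCF10A replicates differed in how their counts depended on transcript length, and one stood furthest apart. In MCF10A total RNA after PP242 in normoxia, replicate 2 lost 0.40 on the log2 scale for each doubling of transcript length, the steepest slope of the 32 libraries. It also had the lowest scaling factor, 0.764. The slopes of the 2 replicates were -0.28 and 0.10 in normoxic polysomes (factors 0.808 and 1.1), -0.18 and 0.13 in hypoxic polysomes, and 0.16 and -0.22 in total RNA under both treatments. In MDA-MB-231 all slopes lay between -0.119 and 0.0962. Calls and Te values of the 10 genes that rest on the furthest library are given with and without it. Each call of the 10 genes for a response to treatment is followed below over the omission of every library it compares. The calls between the lines in normoxia, and all calls of genes other than the 10, are not followed in this way. When 1 library is left out its group has a single library, which is then taken to vary like the other groups of the fit. Below, a statement that groups do not overlap describes 2 against 2 libraries. In MCF10A total RNA, 8 of the 10 members did not overlap with normoxia after hypoxia, where none was called. After both treatments 10 did not overlap, where 3 were called. The share of all genes without an overlap was not counted.

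In the integrated stress response, kinases such as PERK, which senses misfolded protein in the endoplasmic reticulum, and GCN2, which senses uncharged tRNA, phosphorylate the initiation factor eIF2α. Fewer ribosomes then start on most mRNAs, but mRNAs with short upstream open reading frames (uORFs) in their 5′ leaders, ATF4 among them, can be translated more. ATF4 switches on genes of amino acid supply and also DDIT3, TRIB3, CHAC1 and ATF3, while the PPP1R15 proteins guide a phosphatase to eIF2α and so end the response. Hypoxia is a known trigger of PERK, and mTOR inhibition represses another class of mRNAs, those with a terminal oligopyrimidine tract (TOP mRNAs).

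The upstream AUGs that define the class are printed for the 4 members on which the results turn or whose uORFs are best known. Each line is a window of 21 bases of the leader, with the ATG in capitals, taken from the GENCODE canonical transcript. ATF4 lies at chr22:39519695-39522683 (GRCh38, plus strand), ATF5 at chr19:49928702-49933935 (plus strand), DDIT3 at chr12:57516588-57521737 (minus strand) and PPP1R15A at chr19:48872212-48876059 (plus strand).
ATF4 upstream AUG 1: cgcccacagATGtagttttct
ATF4 upstream AUG 2: acggccaccATGgcgtattag
ATF4 upstream AUG 3: gcttaagccATGgcgcttctc
ATF5 upstream AUG 1: gccccggccATGgctctgtag
ATF5 upstream AUG 2: gctgcagccATGgagtcttcc
DDIT3 upstream AUG 1: gagcgtatcATGttaaagatg
DDIT3 upstream AUG 2: atgttaaagATGagcgggtgg
DDIT3 upstream AUG 3: tgaaagcagATGtgcttttcc
PPP1R15A upstream AUG 1: gttgatcttATGcaagacgct
PPP1R15A upstream AUG 2: gagggtgagATGaacgcgctg

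ATF4 and ATF5 shared one layout. In ATF4 the first AUG is followed at once by a stop codon, the second opens a frame of 3 codons, and the third, 97 bases before the main AUG, opens a frame of 59 codons that runs past it. In ATF5 a frame of 3 codons is likewise followed by one of 59 codons that overlaps the main start. DDIT3 had a pair of nested frames of 34 and 31 codons and another of 73 codons that begins 32 bases before the main AUG. The frames of PPP1R15A, of 22 and 26 codons, both end within the leader. PPP1R15B carried 2 upstream AUGs (8 and 51 codons), TRIB3 2 (77 and 14 codons) and EIF2AK3 1 (8 codons, overlapping the main start), whereas ATF3, CHAC1 and EIF2AK4 had none in their canonical transcripts. Of 19811 protein-coding canonical transcripts, 42.0% held at least 1 upstream AUG, 23.2% held at least 2 and 13.3% held one whose frame overlaps the main start. The deposited counts are per gene, so the isoform in use in these cells was not measured.

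**Figure D1:**
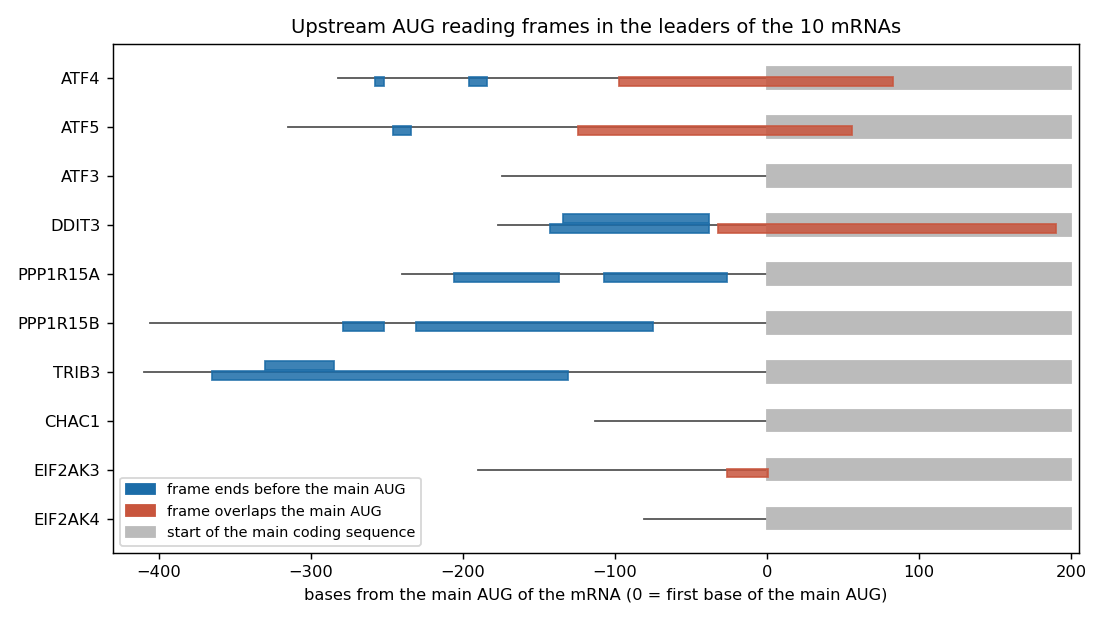
Upstream AUG frames in the leaders of the 10 mRNAs, with the distance from the main AUG in bases on the horizontal axis and 1 row per gene; bars are the upstream reading frames. ATF4, ATF5 and DDIT3 each have a frame that runs past position 0, the first base of the main AUG. The frame of EIF2AK3, with its stop codon, ends on that base. ATF3, CHAC1 and EIF2AK4 have no bar.

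In normoxic total RNA, ATF4 was the most abundant member in both lines. Per kilobase of canonical transcript it stood at 314 ± 32.01 CPM per kb in MCF10A and 374 ± 76.4 CPM per kb in MDA-MB-231 (mean ± SD, n = 2). In MCF10A it was followed by ATF5 at 19.8 ± 2.55, PPP1R15B at 18.9 ± 0.839, TRIB3 at 13.9 ± 1.65, EIF2AK4 at 13.5 ± 1.302, PPP1R15A at 12.4 ± 0.323 and DDIT3 at 8.58 ± 1.04 CPM per kb. ATF5 and PPP1R15B, TRIB3 and EIF2AK4, and EIF2AK4 and PPP1R15A differed by less than the sum of their SDs. EIF2AK3 at 2.13, CHAC1 at 0.688 and ATF3 at 0.373 CPM per kb closed the order, so the last 2 rested on few reads (7 to 221 per MCF10A library for CHAC1 and 16 to 412 for ATF3). In MDA-MB-231 the second place went to PPP1R15A at 120.1 ± 50.9 CPM per kb. ATF5 (38.1 ± 10.9), PPP1R15B (30.1 ± 0.210), DDIT3 (22.6 ± 5.90) and EIF2AK4 (19.7 ± 2.14) came next, of which each neighbouring pair except PPP1R15B and DDIT3 differed by less than the sum of its SDs. TRIB3 (10.9), CHAC1 (8.22), ATF3 (4.64) and EIF2AK3 (4.04 CPM per kb) were lowest, and neighbours among them were likewise within the sum of their SDs.

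The lines differed in 3 members before any treatment. On the scale of the joint fit of both lines, PPP1R15A was at 34.7 and 33.7 CPM in MCF10A and at 172 and 307 CPM in MDA-MB-231, a 6.99-fold difference (edgeR quasi-likelihood test, adjusted p = 2e-06). CHAC1, which degrades glutathione, was at 1.44 and 1.02 CPM against 7.88 and 13.3 CPM on that scale, 8.6-fold higher in MDA-MB-231 (adjusted p = 0.000289). ATF3, a stress-induced repressor and activator, was at 0.981 and 0.722 CPM against 6.54 and 8.75 CPM, 8.97-fold higher (adjusted p = 0.00147). The values of the lines did not overlap for any of the 3. Among all 14298 genes tested jointly, 40.7% differed between the lines in normoxia, so 3 of 10 is no more than the share of genes in general. Other fits called up to 7 members, beside 62.4% of all genes. With bulk RNA, a change in every cell and a change in the share of cells that carry an mRNA cannot be told apart.

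**Figure D2:**
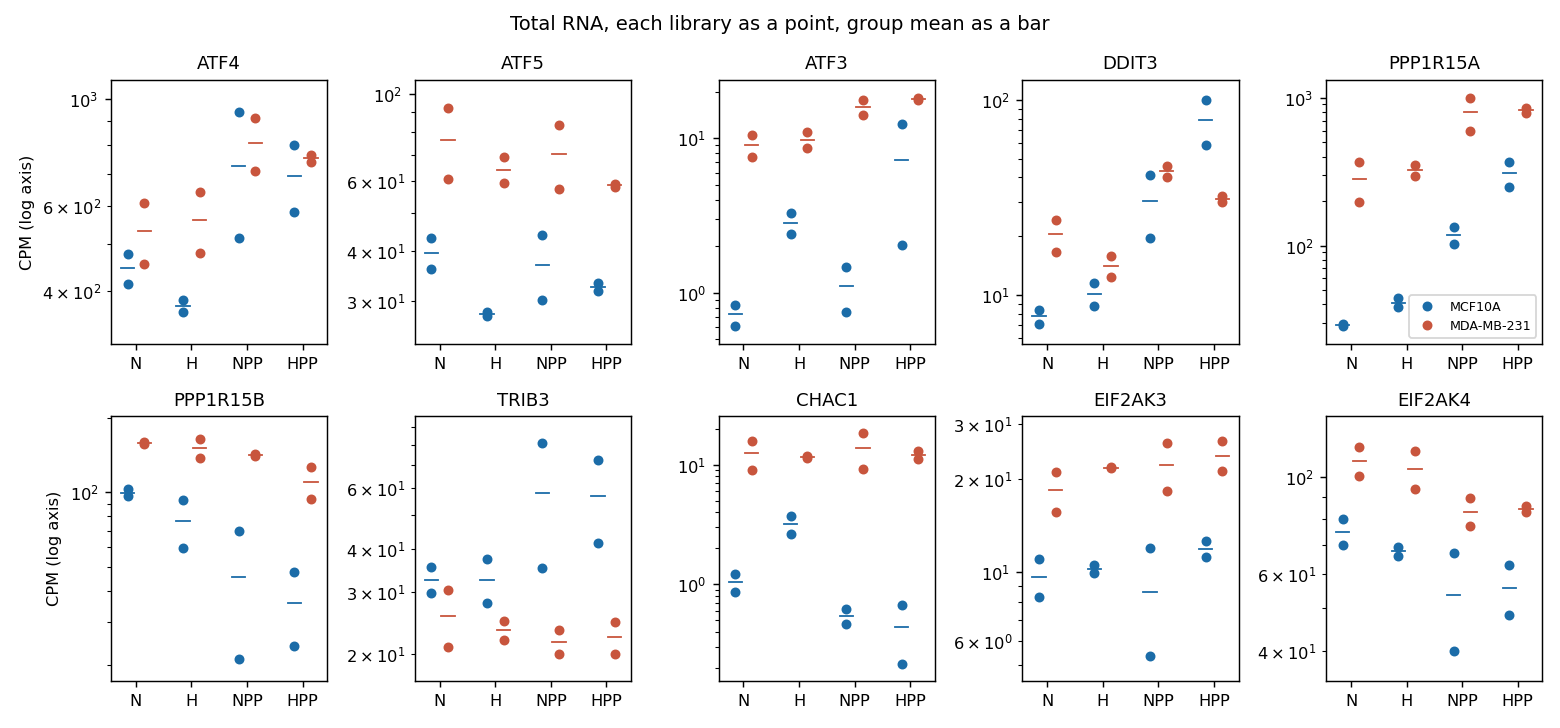
Total RNA level of each of the 10 genes in CPM (log axis) by treatment (N, H, NPP, HPP); points are the 2 libraries of each line and bars their mean. In MCF10A, PPP1R15A went from 29.6 and 28.5 CPM in N to 250.3 and 366 CPM in HPP, while ATF4 libraries of all treatments ranged over less than a factor of 3 in each line.

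Hypoxia alone changed none of the 10 mRNAs by an adjusted p below 0.05, in either line or fraction. The share of all genes called was 1.54% in MCF10A total RNA, 1.49% in MCF10A polysomal RNA, 1.27% in MDA-MB-231 total RNA and 2.29% in MDA-MB-231 polysomal RNA. ATF4 total RNA was at 414 and 478 CPM in N and at 362 and 384 CPM in H in MCF10A, and at 455 and 608 CPM against 479.9 and 642 CPM in MDA-MB-231. Its values were thus lower in hypoxia in one line and overlapping in the other, in both cases without a call. At an unadjusted p below 0.05 were ATF3 in MCF10A total RNA, ATF5 and CHAC1 in MCF10A polysomes, and DDIT3 in both fractions of MDA-MB-231. This is 1, 2, 1 and 1 of the 10 members, beside 10.9%, 12.5%, 12.7% and 17.2% of all genes at that level. ATF3 in MCF10A stood at 3.30 and 2.39 CPM after hypoxia, above both normoxic libraries (log2 change 1.98, adjusted p = 0.449). CHAC1 in MCF10A polysomes stood at 8.30 and 3.15 CPM against 2.69 and 0.922 CPM. DDIT3 in MDA-MB-231 total RNA had lower values in hypoxia, 12.3 and 15.9 CPM against 16.7 and 24.2 CPM. When only the libraries compared entered the fit, ATF3 and CHAC1 were called upwards in MCF10A total RNA, beside 4.72% of all genes. DDIT3 in MDA-MB-231 polysomes, at 11.2 and 13.2 CPM against 17.4 and 22.2 CPM in normoxia, was called downwards by DESeq2, without the count filter and with the replicate block, beside 4.83%, 4.27% and 4.74% of all genes.

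PP242 in normoxia raised PPP1R15A, the stress-inducible phosphatase subunit. In MCF10A total RNA it stood at 102.96 and 133 CPM after PP242, a 4.06-fold rise over normoxia (log2 change 2.02, SE 0.31, adjusted p = 0.0181). In MCF10A polysomes it went from 34.1 and 22.4 CPM to 90.1 and 125 CPM, a 3.8-fold rise (adjusted p = 0.0177). In MDA-MB-231 polysomes it went from 201 and 371 CPM to 630.2 and 1071 CPM, a 2.97-fold rise (log2 change 1.57, SE 0.34, adjusted p = 0.0257). Its libraries did not overlap in these 3 comparisons, as was so for 6, 8 and 5 of the 10 members in the same order. PPP1R15A was the 1 member called in each, beside 0.648% of all genes in MCF10A total RNA, 0.823% in MCF10A polysomes and 1.95% in MDA-MB-231 polysomes. The replicate block called more members in each of these 3 comparisons. All genes called were then 223 and 666 of 13124 in MCF10A total and polysomal RNA and 488 of 13510 in MDA-MB-231 polysomes. In MDA-MB-231 total RNA, where 0.555% of all genes were called, no member passed the test, although other fits called up to 4. With the replicate number as a block, ATF4, DDIT3 and PPP1R15A were called there, beside 1.34% of all genes. In the fit without the block PPP1R15A stood at 591 and 997 CPM (log2 change 1.49, adjusted p = 0.0729) and DDIT3 at 40.2 and 45.8 CPM (log2 change 1.08, adjusted p = 0.0501), both above their normoxic libraries.

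These PP242 calls could be lost when 1 library was left out. That leaves a group with a single library, so a lost call does not by itself show that the rise rests on the library omitted. Without replicate 2 of MCF10A total RNA after PP242, PPP1R15A kept a log2 change of 1.82 but not the call (adjusted p = 0.0927), and it was also lost without either normoxic total library. In MCF10A polysomes, leaving out any 1 of the 4 libraries compared ended the call. The log2 change of PPP1R15A there, 1.93 with all libraries, was 2.26 without normoxic replicate 1 and 1.66 without normoxic replicate 2. Without replicate 1 of MCF10A total RNA after PP242, DDIT3 (log2 change 2.40) and PPP1R15B (log2 change -2.23) joined PPP1R15A. All genes called in that fit rose from 85 to 398 (2.96%), and its PP242 arm is the library with the steepest slope alone. In MDA-MB-231 polysomes the call was lost without normoxic replicate 1 or PP242 replicate 2. With only the libraries compared in the fit, PPP1R15A lost its calls in MCF10A total RNA and in MDA-MB-231 polysomes. That fit called 0 of 12474 and 160 of 12843 genes there.

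Hypoxia with PP242 called more members than either treatment alone in each line and fraction, and more genes in general. In MCF10A total RNA PPP1R15A reached 250.3 and 366 CPM, a 10.6-fold rise over normoxia (95% confidence interval 6.45 to 17.5; log2 change 3.41, SE 0.33, adjusted p = 0.000147). DDIT3, a factor that promotes cell death under prolonged stress, went from 8.41 and 7.08 CPM to 58.4 and 100.0 CPM, a 10.2-fold rise (interval 4.51 to 23.2; adjusted p = 0.00199). ATF3 was at 2.04 and 12.5 CPM, a 10.0-fold rise with a wide interval of 2.48 to 40.4 (adjusted p = 0.0312). For PPP1R15A and DDIT3 both replicates were far above every normoxic library, whereas the replicates of ATF3 differed from each other more than the lower one did from normoxia. Without replicate 2 of MCF10A total RNA under both treatments, the log2 change of ATF3 was 1.50 (adjusted p = 0.364), and those of DDIT3 and PPP1R15A were 2.92 and 3.11 with the calls kept. The ATF3 call was also lost without either normoxic library. In this comparison 14.9% of all genes were called, and 3 of the 10 members, all upwards.

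The polysomal RNA of MCF10A gave 22.2% of all genes and 3 members. PPP1R15A went from 34.1 and 22.4 CPM to 313 and 331 CPM, an 11.4-fold rise (log2 change 3.51, SE 0.33, adjusted p = 0.000103). DDIT3 went from 9.18 and 4.59 CPM to 75.4 and 50.5 CPM, a 9.17-fold rise (adjusted p = 0.00217). ATF5, a relative of ATF4 with a similar leader, fell from 48.5 and 42.7 CPM to 25.6 and 20.1 CPM (log2 change -0.998, SE 0.26, adjusted p = 0.0191). The ATF5 call was lost without normoxic replicate 1, without replicate 2 of the combined treatment and with only the libraries compared in the fit. The calls of PPP1R15A and DDIT3 held in both fractions without any 1 of the 4 libraries and under all 6 alternative fits. ATF4 itself was at 582 and 802 CPM in total RNA and at 399.9 and 165 CPM in polysomes, against 427 and 225 CPM in normoxic polysomes. The ATF4 replicates thus differed more in polysomes than the treatments did, and no ATF4 change in MCF10A passed the test in any comparison.

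PPP1R15B, the constitutive phosphatase subunit, moved the other way from its inducible relative. In MCF10A total RNA it stood at 102.78 and 96.5 CPM in normoxia and at 47.6 and 24.0 CPM under both treatments, without an overlap (log2 change -1.48, adjusted p = 0.0566). In polysomes it stood at 71.5 and 88.2 CPM against 30.6 and 32.2 CPM (log2 change -1.35, adjusted p = 0.0603). Its transcript of 5259 bases is long, and in MCF10A the log2 change fell by 0.13 per doubling of length in total RNA but rose by 0.20 in polysomes. With transcript length as an offset, PPP1R15B was called in both, with log2 changes of -1.35 in total RNA (adjusted p = 0.00276) and -1.52 in polysomes (adjusted p = 0.00106). It was also called in both by DESeq2 (adjusted p = 0.0139 and 0.019) and with the replicate number as a block (log2 changes -1.61 and -1.34, adjusted p = 0.00394 and 0.0066), and in total RNA without the count filter and in polysomes with only the libraries compared (adjusted p = 0.0417 and 0.0347). In MDA-MB-231 total RNA it fell from 159 and 158 CPM to 127 and 94.0 CPM (log2 change -0.52, SE 0.16, adjusted p = 0.0483), a call that was lost without any 1 of 3 of the 4 libraries.

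In MDA-MB-231 the combined treatment raised 2 members in total RNA and 3 in polysomes. In total RNA PPP1R15A went from 198 and 367 CPM to 787.5 and 853 CPM, a 2.91-fold rise (adjusted p = 0.0094). ATF3 went from 7.53 and 10.5 CPM to 18.2 and 17.8 CPM, a 2.02-fold rise (adjusted p = 0.0259). In polysomes PPP1R15A went from 201 and 371 CPM to 941 and 833 CPM, a 3.1-fold rise (adjusted p = 0.0047), and ATF3 from 7.93 and 14.0 CPM to 29.9 and 29.2 CPM, a 2.68-fold rise (adjusted p = 0.00255). The kinase EIF2AK3 went from 17.2 and 17.9 CPM to 30.05 and 24.9 CPM in polysomes, a 1.57-fold rise (adjusted p = 0.0294). The groups did not overlap in any of these 5 cases, nor for 8 of all 10 members in total RNA and 7 in polysomes. All genes gave 13.2% of calls in total RNA and 19.4% in polysomes. The 2 polysomal calls of PPP1R15A and ATF3 held without any 1 library and under all 6 alternative fits. The calls of ATF3 in total RNA and of EIF2AK3 in polysomes were lost whichever library was left out, and that of PPP1R15A in total RNA without normoxic replicate 1 (adjusted p = 0.0683). DDIT3 in MDA-MB-231 stood higher after PP242 alone, with means of 43.0 CPM against 31.2 CPM after both treatments in total RNA, and of 34.8 against 21.8 CPM in polysomes, a difference that was not tested.

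The remaining members stayed without a call against normoxia. DDIT3 in MDA-MB-231 total RNA, at 32.3 and 30.1 CPM after both treatments, lay above its normoxic libraries of 16.7 and 24.2 CPM (log2 change 0.62, SE 0.23, adjusted p = 0.0859) and was called by 5 of the 6 alternative fits, which called between 11.7% and 19.3% of all genes. ATF4 total RNA in MDA-MB-231 stood at 708 and 913 CPM after PP242 and at 739 and 766 CPM after both treatments, each above the normoxic 455 and 608 CPM (log2 changes 0.61 and 0.50, adjusted p = 0.258 and 0.115). ATF4 was called by 5 of the 6 alternative fits in MDA-MB-231 total RNA after both treatments (with the length offset, log2 change 0.56, adjusted p = 0.0447), by 4 in its polysomes after PP242 (log2 change 0.73, adjusted p = 0.0455, with the offset) and by 2 in its total RNA after PP242. The fits that called it gave 11.7% to 19.3%, 2.88% to 3.92% and 1.34% to 1.68% of all genes in these comparisons. TRIB3, a pseudokinase induced by ATF4, ranged from 19.9 to 30.4 CPM over the 8 MDA-MB-231 total libraries and from 27.9 to 80.9 CPM over those of MCF10A. In polysomes it ranged from 25.1 to 31.3 CPM and from 36.3 to 68.7 CPM. The sensor EIF2AK4 ranged from 77.3 to 117 CPM in MDA-MB-231 total RNA and from 40.0 to 80.1 CPM in MCF10A, and in polysomes from 77.6 to 110 CPM and from 60.8 to 89.98 CPM. CHAC1 in MCF10A stood at 0.216 and 0.671 CPM in total RNA and at 0.194 and 1.01 CPM in polysomes after both treatments (log2 changes -1.24 and -1.53, adjusted p = 0.346 and 0.17). With 1 library left out these changes lay between -2.25 and -0.54 in total RNA and between -3.18 and -0.50 in polysomes, without a call. In MDA-MB-231 its log2 changes against normoxia lay between -0.10 and 0.15 over the 6 comparisons of treatment and fraction. EIF2AK3 in MCF10A had changes between -0.15 and 0.87, and ATF5 in MDA-MB-231 between -0.47 and -0.12, none of them called.

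**Figure D3:**
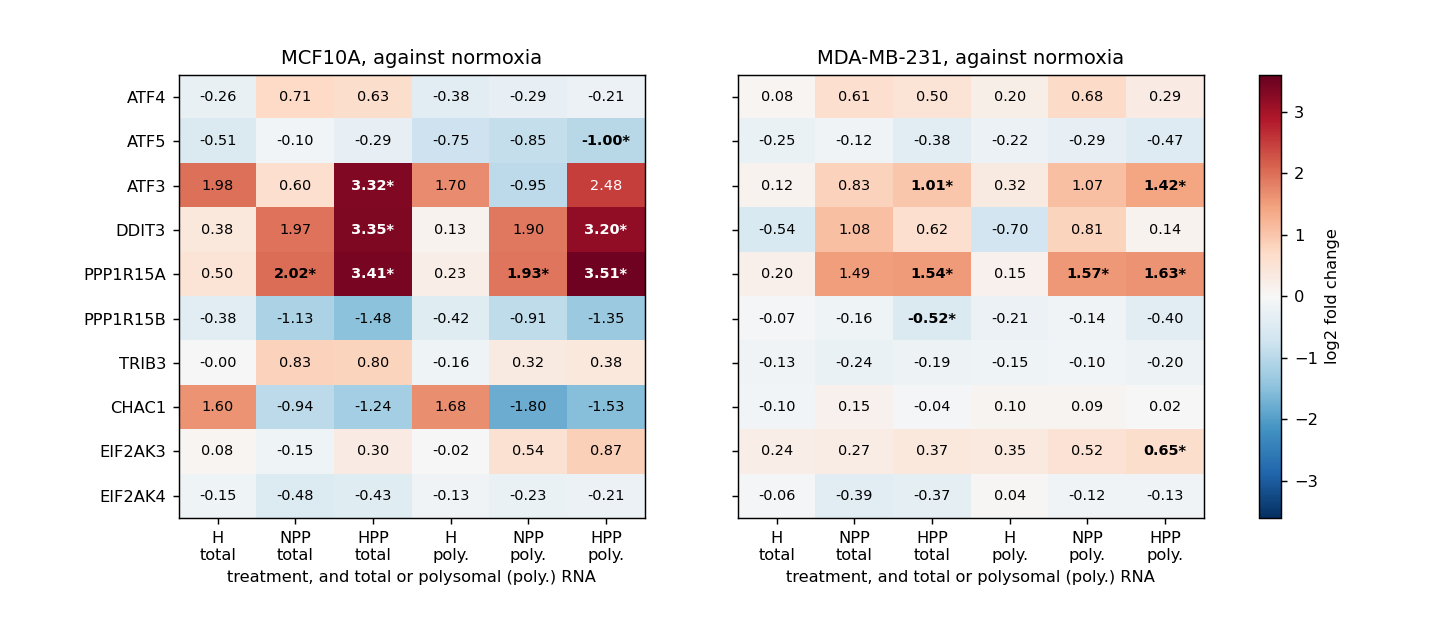
Log2 change against normoxia of each of the 10 genes (rows) for each treatment in total and polysomal (poly.) RNA (columns), in MCF10A and MDA-MB-231; the colour gives the change and the mark the adjusted p below 0.05. PPP1R15A carries the largest called polysomal change in MCF10A, 3.51 under HPP, and the hypoxia columns carry no mark.

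Set against hypoxia alone, PP242 raised PPP1R15A and DDIT3 in both fractions of each line. With only the libraries compared in the fit, both total RNA calls in MCF10A were lost, with 0 of all genes called. The polysomal calls of MCF10A did not all hold in that fit either, with 38 of 12640 genes called. In MCF10A total RNA the log2 changes were 2.91 for PPP1R15A (SE 0.32, adjusted p = 0.00107) and 2.97 for DDIT3 (SE 0.53, adjusted p = 0.0104), and 3.74% of all genes were called. The replicate block called a further member in total RNA of each line. It called 1153 of 13124 genes in MCF10A and 962 of 13510 in MDA-MB-231. In MCF10A polysomes they were 3.28 (adjusted p = 0.000455) and 3.07 (adjusted p = 0.00831), with 6.5% of all genes called. There CHAC1 fell from 8.30 and 3.15 CPM in hypoxia to 0.194 and 1.01 CPM with PP242, 9.25-fold lower (log2 change -3.21, SE 0.79, adjusted p = 0.0345). The CHAC1 values rest on few reads, and the call was lost without any 1 of 3 of the 4 libraries. In MDA-MB-231 total RNA, with 3.78% of all genes called, PPP1R15A rose by 1.34 (adjusted p = 0.0393) and DDIT3 by 1.15 (adjusted p = 0.0161) on the log2 scale. In MDA-MB-231 polysomes, with 11.5% called, PPP1R15A rose by 1.48 (adjusted p = 0.0118), ATF3 by 1.11 (adjusted p = 0.0151) and DDIT3 by 0.84 (adjusted p = 0.0298). Leaving out 1 library ended the MDA-MB-231 calls of PPP1R15A in total RNA and of ATF3 and DDIT3 in polysomes in every case, and those of DDIT3 in total RNA and PPP1R15A in polysomes in 3 of 4 cases. In MCF10A the DDIT3 call in total RNA was lost without either hypoxic library or replicate 2 of the combined treatment, and in polysomes without hypoxic replicate 2. These comparisons share the hypoxia and PP242 libraries with those above.

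The response to the combined treatment was smaller in MDA-MB-231 than in MCF10A for PPP1R15A and DDIT3. In total RNA the log2 change in MDA-MB-231 minus that in MCF10A was -2.66 for DDIT3 (SE 0.57, adjusted p = 0.0108) and -1.78 for PPP1R15A (SE 0.48, adjusted p = 0.0439), where 3.31% of all genes differed. In polysomes it was -3.08 for DDIT3 (SE 0.57, adjusted p = 0.00357) and -1.91 for PPP1R15A (SE 0.48, adjusted p = 0.0281), where 3.6% of all genes differed. On the scale of the joint fit, DDIT3 ended at 28.9 and 26.6 CPM in MDA-MB-231 total RNA, below the 64.7 and 121 CPM of MCF10A. PPP1R15A ended on that scale at 706 and 755 CPM in MDA-MB-231 and at 277 and 442 CPM in MCF10A, after a start at a higher level in the former. The polysomal difference of DDIT3 held without any 1 of the 8 libraries. The other 3 did not, being lost in 5 of 8 cases for DDIT3 in total RNA, 6 of 8 for PPP1R15A in total RNA and 5 of 8 for PPP1R15A in polysomes. With only the libraries compared in the fit, DDIT3 and PPP1R15A did not both keep the call in either fraction. No member differed between lines in its response to hypoxia or to PP242 alone, where 0.266% (hypoxia, total), 0.329% (hypoxia, polysomal), 0.056% (PP242, total) and 0.126% (PP242, polysomal) of all genes did. For PP242 in total RNA there was no call without replicate 2 of MCF10A either, while without replicate 1 PPP1R15B and TRIB3 were called, as were 9.2% of all genes (1388, against 8 with all libraries).

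**Figure D4:**
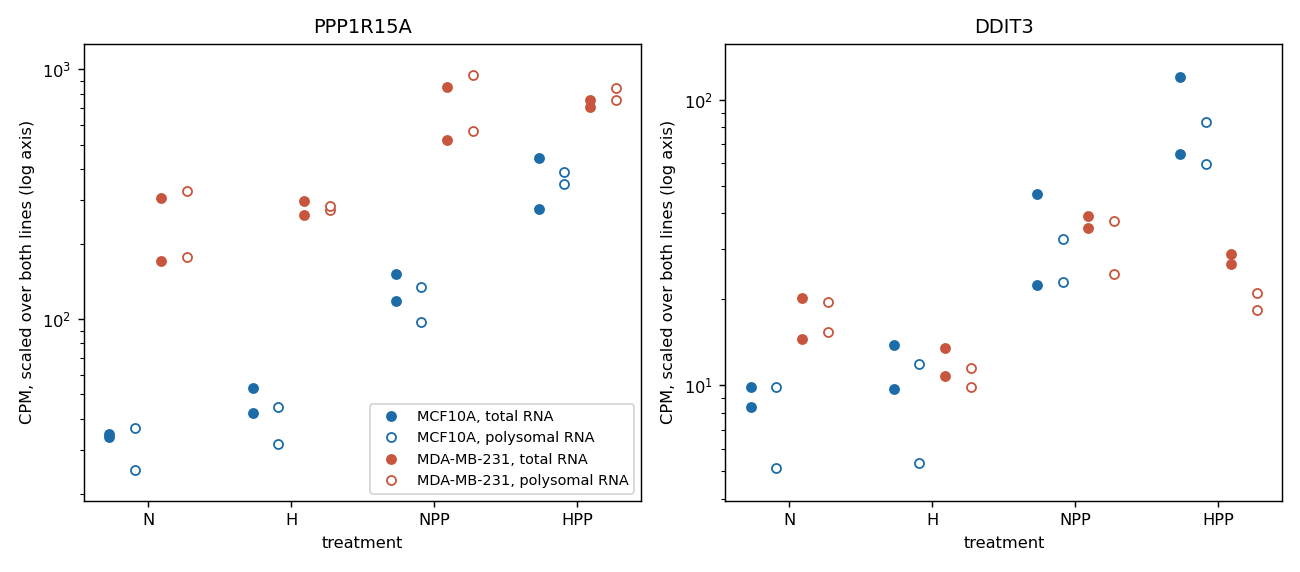
Level of PPP1R15A and DDIT3 in CPM on the scale of the joint fit (log axis) by treatment in both lines and fractions; each point is a library. PPP1R15A starts at 34.7 and 33.7 CPM in MCF10A and at 172 and 307 CPM in MDA-MB-231 total RNA, and DDIT3 reaches 64.7 and 121 CPM in MCF10A against 28.9 and 26.6 CPM in MDA-MB-231 under HPP.

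The uORF class is known for changes in translation, so the translational efficiency (Te) was tested as the change in polysomal RNA beyond that in total RNA. No member changed in Te in either line under any of the 3 treatments, and none of the 60 values reached an unadjusted p below 0.05, beside 0.175% to 3.36% of all genes. With the culture shared by total and polysomal RNA as a block, 1 member reached that level in MCF10A after PP242 and 1 in MDA-MB-231 after both. The median SE in MDA-MB-231 after both treatments was then 0.209, against 0.302 without the block. No member was called with that block. Every library was scaled to its own reads, so Te is relative to the other mRNAs of the same fraction, and a general loss of polysomes would not show. In MDA-MB-231, the line with the smaller spread, the Te changes of the 10 members lay between -0.48 (DDIT3 under HPP) and 0.41 (ATF3 under HPP) on the log2 scale, with a median SE of 0.301. For ATF4 in MDA-MB-231 they were 0.13 (95% interval -0.48 to 0.73) in hypoxia, 0.08 (-0.53 to 0.68) after PP242 and -0.21 (-0.82 to 0.40) after both. For PPP1R15A after both treatments the Te change was 0.09 (-0.91 to 1.09), so its polysomal rise matched its rise in total RNA within that interval. In MCF10A the Te changes lay between -1.54 (ATF3 after PP242) and 0.69 (EIF2AK3 after PP242), with a median SE of 0.615. There the ATF4 values were -0.99 (-2.71 to 0.73) after PP242 and -0.84 (-2.56 to 0.88) after both, intervals wide enough to hold a rise as well as a fall. Without replicate 2 of MCF10A total RNA after PP242 the former was -0.50, and the lowest and highest Te changes after PP242 became -1.01 (ATF3) and 0.55 (DDIT3), with EIF2AK3 at 0.23. Without replicate 2 of MCF10A total RNA under both treatments ATF3 went from -0.85 to 1.06. Without normoxic polysomal replicate 1 of MCF10A, whose slope was also steep, the Te changes over the 3 treatments lay between -1.35 (ATF3) and 1.04 (CHAC1), and those of ATF4 after PP242 and after both were -0.49 and -0.31. Without normoxic polysomal replicate 2 these ATF4 values were -1.38 and -1.23. With transcript length as an offset they were -0.53 and -0.35, and the Te change of DDIT3 went from -0.07 to 0.69 after PP242 and from -0.16 to 0.71 after both. No value was called in these fits.

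Across all genes 0% changed in Te in MCF10A under hypoxia, PP242 or both (23, 296 and 433 of 13124 genes at an unadjusted p below 0.05; DESeq2 called 0, 94 and 140). In MDA-MB-231 the shares were 0.0148% in hypoxia, 0.34% after PP242 and 0.696% after both. After PP242 and after both, all of these 46 and 94 genes fell and 0 rose, so no gene was called for a rise in Te in these comparisons. The titles tie each total library to a polysomal one, and with that culture as a block the share after PP242 in MDA-MB-231 was 0.0592% and after both 0.555%. Among these, 1 gene rose after PP242 and 2 after both, while no member was called in either line. A fall in Te was measurable in this design for the TOP mRNAs, which encode ribosomal proteins and translation factors. In MDA-MB-231, 5 of the 10 listed fell after PP242 (median log2 change -1.35) and 7 after both treatments (median -1.83), led by TPT1 at -2.51 and EEF1A1 at -2.04. With the culture block these counts were 1 and 7, with the medians at -1.35 and -1.83. In MCF10A the medians were -2.38 (-1.79 without replicate 2 of total RNA) after PP242 and -2.87 after both, with no call.

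In normoxia no member differed between polysomal and total RNA, beside 0% of all genes in MCF10A (1660 at an unadjusted p below 0.05; DESeq2 called 0.77%) and 13.1% in MDA-MB-231. The polysomal over total ratio of ATF4 CPM ran from 0.590 to 0.815 with a median of 0.753 over the 8 pairs of MDA-MB-231 libraries, below 1 in each. In MCF10A it ran from 0.206 to 1.07 with a median of 0.504. PPP1R15B was likewise below 1 in every MDA-MB-231 pair, from 0.631 to 0.851. PPP1R15A in MDA-MB-231 ran from 0.931 to 1.19. TRIB3, CHAC1 and ATF3 were above 1 in each MDA-MB-231 pair, from 1.03 to 1.40, from 1.08 to 1.44 and from 1.05 to 1.64. The log2 difference for ATF4 in normoxic MDA-MB-231 was -0.49 (SE 0.20, adjusted p = 0.122), which passed the threshold only with transcript length as an offset (adjusted p = 0.0431).

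**Figure D5:**
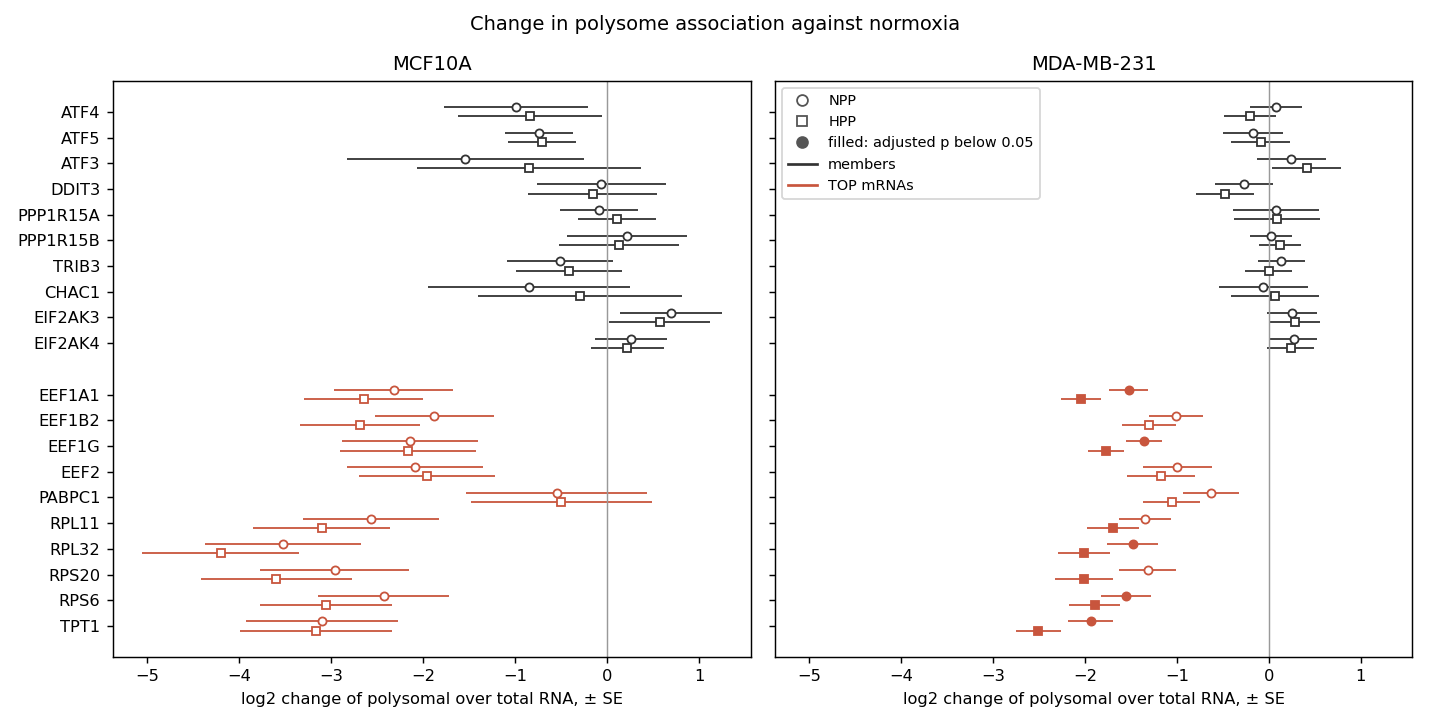
Te change (log2 change of polysomal over total RNA against normoxia, with SE bars) after NPP and HPP, in MCF10A and MDA-MB-231. The rows are the 10 genes and, below them, the 10 listed TOP mRNAs. Filled points have an adjusted p below 0.05. In MDA-MB-231 the points of the 10 genes lie between -0.48 and 0.41, and in MCF10A they lie between -1.54 and 0.69 with longer bars.

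The genes that ATF4 is known to switch on moved in both directions. Of 39 listed targets outside the 10 members, 38 were tested in MCF10A and 37 in MDA-MB-231. In MCF10A under both treatments 5 rose and 8 fell in total RNA (median log2 change -0.15, all genes -0.01), and 4 rose and 9 fell in polysomes (median -0.37, all genes -0.04), so 13 of 38 were called in each, beside 14.9% and 22.2% of all genes. In MDA-MB-231 the counts were 2 and 1 in total RNA (median -0.11, all genes -0.05) and 2 and 3 in polysomes (median -0.09, all genes 0.01), beside 13.2% and 19.4% of all genes. After hypoxia alone 2 rose and 1 fell in MCF10A total RNA, 2 rose and 2 fell in its polysomes, and 1 rose in each fraction of MDA-MB-231, beside 1.54%, 1.49%, 1.27% and 2.29% of all genes. After PP242 alone the only calls were STC2 in MCF10A polysomes (log2 change 1.39) and GDF15, a stress hormone, in MDA-MB-231 (2.3-fold in total RNA and 2.41-fold in polysomes), beside 0.823%, 0.555% and 1.95% of all genes.

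The directions also differed within lists. The largest rises were VLDLR, a lipoprotein receptor (log2 change 3.83 in MCF10A and 0.95 in MDA-MB-231 total RNA under both treatments), and STC2, a secreted glycoprotein (2.09 in MCF10A). Both also rose under hypoxia alone in MCF10A, by 4.36 and 2.03, and both are known hypoxia-induced genes. Among the tRNA synthetases 4 of 9 fell in MCF10A total RNA under both treatments, led by MARS at -1.34 and YARS at -1.20, and 3 fell in its polysomes, beside 14.9% and 22.2% of all genes called. Among the enzymes of amino acid and one-carbon synthesis, PSAT1 of serine synthesis fell (-1.59) and CTH of cysteine synthesis rose (1.24) in MCF10A total RNA. The mitochondrial folate enzyme MTHFD2 fell in polysomes of both lines, by 1.98 on the log2 scale in MCF10A and by 0.78 in MDA-MB-231. The transporters gave 1 call per line in total RNA, the glycine carrier SLC6A9 in MCF10A (1.49) and SLC1A4 in MDA-MB-231 (0.79). CEBPG, a dimer partner of ATF4, fell in MCF10A total RNA and polysomes (-2.18 and -2.39) and in MDA-MB-231 total RNA (-0.58). No target in any of these lists changed in Te.

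The calls in the list of eIF2 machinery were downwards, whereas EIF2AK3, a member and not in that list, rose in MDA-MB-231 polysomes as given above. Of 16 genes for eIF2, its exchange factor eIF2B, the other eIF2α kinases and their cofactors, 4 fell in MCF10A polysomes under both treatments (median of the list -0.59), among them the subunits EIF2S3 (-1.65), EIF2S2 (-1.22) and EIF2S1 (-0.86). In MDA-MB-231 polysomes 4 fell as well (median -0.29), led by EIF2S3 (-0.67) and the kinase EIF2AK2 (-0.66). In total RNA 2 fell in MCF10A and 3 in MDA-MB-231, beside 14.9% and 13.2% of all genes called, and none was called under hypoxia or PP242 alone. The polysomal counts, 4 of 16 in each line, lie near the shares of all genes called (22.2% and 19.4%).

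The other branches of the endoplasmic reticulum stress response, run by ATF6 and IRE1, were represented by 15 genes. Under both treatments 2 rose and 3 fell in MCF10A polysomes, among them the chaperone HSP90B1 (1.10), HERPUD1 of protein degradation (1.15), SDF2L1 (-2.07) and XBP1 (-1.08), the factor that IRE1 splices. In MDA-MB-231 polysomes 3 rose, namely HERPUD1 (0.70), DNAJB9 (0.69) and SEL1L (0.68), and SDF2L1 fell (-0.86). All genes gave 22.2% and 19.4% of calls in these comparisons. None of the 15 was called under hypoxia alone in either line. The other 6 mRNAs listed for known uORFs (SLC35A4, IFRD1, IBTK, EPRS, SLC7A1 and QRICH1) gave no call against normoxia, in expression or Te, in either line.

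The promoters were searched for the binding motif of ATF4 with its CEBP partners (TGATGNAAN, either strand, from 250 bases before to 50 after the start site). RefSeq promoters (GRCh38.p14) were matched for all 10 members, and 3 held the motif, shown here in capitals within 30 bases read along the strand of the motif.
ATF3: aaggtcaggaTGATGGAAGgctgtcatatt
PPP1R15B: ccgccccggcTGATGCAACctcacgctgcc
CHAC1: ctggcaggagTGATGCAACggcaggggagg
These lie at chr1:212565216-212565224, chr1:204412036-204412044 and chr15:40953261-40953269, centred at positions -187, -223 and -206 from the start sites. The motif was in 3.61% of all 35116 promoters and in 4.45% of 27305 genes. Among the ATF4 target genes matched, it was in 6 of 8 for tRNA synthetases, 3 of 6 for transporters, 1 of 6 for amino acid and one-carbon synthesis and 3 of 11 for other regulators. DDIT3 and PPP1R15A, whose rises under both treatments in MCF10A kept their calls without any 1 library, had no match in this window, and among the 3 genes with one ATF3 rose, while PPP1R15B and CHAC1 had no call upwards against normoxia in the fit of 16 libraries per line.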

How the data were processed

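Expected counts per gene were deposited by the authors as whole numbers, made from poly(A) TruSeq libraries with STAR and RSEM on GENCODE genes; the study's methods name GRCh38 and the submitters' processing notes GRCh37, and no coordinate was taken from the counts; no strand setting is stated in the sources used here. Separate total and polysomal libraries came from 2 biological replicates of each group, and 0 columns lacked a sample. The deposited counts were used without further rounding. Protein-coding genes were filtered (filterByExpr), TMM-scaled within each line and tested with edgeR 4.0.16 (quasi-likelihood, R 4.3.3, limma 3.58.1) in 1 fit per line (16 libraries, 8 groups) and a joint fit of 32 for line differences, with Benjamini-Hochberg adjusted p below 0.05 as a call. Genes tested numbered 13124 (MCF10A), 13510 (MDA-MB-231) and 14298 (joint). Te was the interaction of fraction and treatment. Confidence intervals use the moderated degrees of freedom of the fit.

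The member rule uses no measured value, but members and lists (ATF4 targets in 4 lists, eIF2 machinery, ATF6 and IRE1 branch, other uORF mRNAs, TOP mRNAs, line and hypoxia markers) were chosen with earlier results of these data known. Of each list, up to 4 called genes with the largest change per comparison were eligible for naming; all 10 members were tested in each, and those not printed singly are given by their range. Alternatives were RLE scaling, DESeq2 1.42.0, no count filter, only the libraries compared, a replicate block, a block by culture for Te (the number in the titles ties total to polysomal RNA), each library left out and, chosen after seeing the data, a transcript length offset (smoothing span 0.3). The scripts were tested on simulated data. Upstream AUGs came from GENCODE release 44 canonical transcripts; promoters came from RefSeq.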

Additional observations from a re-analysis of the deposited data

Results flagged for a closer look

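Among the responses to treatment, 4 differed between the cell lines by a test of the difference itself, all under hypoxia with PP242. For DDIT3 the log2 change in MDA-MB-231 minus that in MCF10A was -2.66 in total RNA and -3.08 in polysomes. For PPP1R15A it was -1.78 in total RNA and -1.91 in polysomes. Only the polysomal difference of DDIT3 held whichever library was left out, as given above. Both genes had higher values after the combined treatment than in normoxia in each line and fraction, except that DDIT3 overlapped in MDA-MB-231 polysomes (17.4 and 22.2 CPM in normoxia, 20.6 and 23.1 CPM after treatment). With 2 libraries per group, no gap test for single outlying values was run. The MCF10A total library after PP242 that stands apart by its length slope is given with the results above.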

How the results depend on the processing

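No called value of a member changed sign under any alternative, and none of the 60 Te values was called under any of them, with any library left out, or by a z-score rule with a limit of 1.5. Values without a call did change sign in 321 of 3639 refitted values, 252 of them with 1 library left out, among them ATF3 in MCF10A for the combined treatment against hypoxia without its replicate 2 (1.35 to -0.53 in total RNA, 0.77 to -1.15 in polysomes) and TRIB3 Te after PP242 without replicate 2 of total RNA (-0.51 to 0.20). The counts of members called changed as follows, with the share of all genes called by the same fit in brackets. In MCF10A total RNA after PP242, 1 (0.648%) became 2 with DESeq2 (2.73%), 2 with the replicate block (1.7%), 2 with the length offset (2.22%) and 0 with only the libraries compared (0%). In polysomes 1 (0.823%) became 3 (5.07%), 2 (5.07%) and 4 (6.08%) with the first 3. For the combined treatment in total RNA 3 (14.9%) became 4 with DESeq2 (20.9%), no filter (9.56%), the block (26.5%) and the offset (26.6%) and 2 with only the libraries compared (9.57%). In polysomes 3 (22.2%) became 5 with DESeq2 (28.3%) and the offset (34.3%) and 4 with no filter (15%) and the block (36.5%). Against hypoxia alone, 2 in total RNA (3.74%) became 3 with DESeq2 (7.96%) and the block (8.79%), 4 with the offset (9.57%) and 0 with only the libraries compared (0%), and 3 in polysomes (6.5%) became 4 with the offset (15.2%) and 1 with only the libraries compared (0.301%). Hypoxia in total RNA went from 0 to 2 with only the libraries compared (4.72%). Normoxic loading went from 0 to 1 (TRIB3) with the block (16.7%), a fit that gives this contrast at the level of replicate 1. The polysomal over total ratio of TRIB3 in normoxic MCF10A was 2.07 in replicate 1 and 1.03 in replicate 2. In MDA-MB-231 total RNA after PP242, 0 (0.555%) became 2 with DESeq2 (1.86%), 1 with RLE (0.577%), 4 with no filter (1.68%), 3 with the block (1.34%) and 1 with the offset (1.02%). In polysomes 1 (1.95%) became 4 with DESeq2 (3.92%), no filter (2.96%) and the block (3.61%), 3 with the offset (2.88%) and 0 with only the libraries compared (1.25%). The combined treatment in total RNA went from 3 (13.2%) to 5 with DESeq2 (15.9%), the block (19.3%) and the offset (18.1%), to 4 with no filter (11.7%) and only the libraries compared (14.9%) and to 2 with RLE (12.8%), and in polysomes from 3 (19.4%) to 4 with DESeq2 (23.1%) and the offset (23.4%). Against hypoxia alone, 2 in total RNA (3.78%) became 3 with DESeq2 (7.18%), no filter (4.51%) and the block (7.12%). Hypoxia in polysomes went from 0 to 1 (DDIT3) with DESeq2, no filter and the block, and normoxic loading from 0 to 1 (ATF4) with the offset (18.4%). Between the lines, the combined treatment went from 2 to 1 with only the libraries compared in total RNA (0.789%) and polysomes (0.54%) and to 3 with the offset in polysomes (8.57%). Normoxia went from 3 (40.7%) to 7 with only the libraries compared (62.4%), 6 with the offset (49.9%) and 4 with DESeq2 (42.5%) and the block (44.8%). In this contrast too the block terms do not cancel, so the block count compares the lines at the level of replicate 1. The causes were not tested. With 1 library left out, the counts ranged in MCF10A from 0 to 3 (PP242, total), 0 to 0 (PP242, polysomal) and 1 to 2 (against hypoxia, total). In MDA-MB-231 they ranged from 0 to 2 (PP242, polysomal; combined, total) and from 0 to 1 (against hypoxia, both fractions), and between the lines from 0 to 2 (PP242, total; combined, total) and 1 to 2 (combined, polysomal).

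The number in a title ties the total and polysomal library of one culture. A block by culture was fitted only for Te and normoxic loading, where no member was called with or without it. The calls for treatment within a fraction were not refitted with it. Across treatments the labels do not say that a replicate number marks a shared day. Same-numbered deviations correlated above 0.1 in 6 of 6 pairs of MCF10A total groups and 3 of 6 polysomal ones, in 5 of 6 and 5 of 6 in MDA-MB-231, and between total and polysomal RNA in 0 of 4 and 3 of 4. In MCF10A total RNA each pair correlated between 0.458 and 0.905, so libraries of one replicate number shared deviations. There the block calls stand beside those of the fit without it. For the other groups pairing across treatments was not established, and their block counts stand as a hint only. The block took all genes called for MCF10A normoxic loading from 0 to 2189. Its replicate terms are set per line and fraction and do not cancel in polysomal against total RNA. That fit therefore gives loading at the level of replicate 1 and does not test the same quantity. ATF4 loading in MCF10A went from -0.45 to 0.19 on the log2 scale. The lowest counts were 7 reads for CHAC1 and 16 for ATF3 in MCF10A libraries, where counting error is largest. The ATF3 replicates of total RNA under both treatments had 66 and 371 reads.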

Other observations

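Over the 32 libraries, after the mean of each line and fraction was subtracted, DDIT3 and PPP1R15A followed each other closely (Pearson r = 0.938; 0.985 within MCF10A and 0.786 within MDA-MB-231). The libraries share treatments, so this is a description of the pattern. The genes most like PPP1R15A among 12374 were MIEF2 (r = 0.946), a mitochondrial fission adaptor, and MAFF (0.940), a small bZIP factor. Those most like DDIT3 were ABCD4 (0.942), PPP1R15A and LMBR1L (0.929). ATF3 was most like the histone genes HIST1H1C (0.914), HIST1H3H (0.893) and HIST2H2BF (0.888), and ATF4 was most like HSBP1L1 (0.874) and C15orf40 (0.863). PPP1R15B was most like TDG (0.959), a DNA glycosylase, and ran against DDIT3 (r = -0.782). With its targets among the members, ATF4 had r = 0.610 (TRIB3), 0.551 (DDIT3), 0.190 (ATF3) and -0.06 (CHAC1).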
